A study of Homo sapiens with 28 samples.

Results

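The comparison described here is the etoposide arm of a pooled CRISPR knockout screen in cells without p53. The cells were U-2 OS, a human osteosarcoma line, and the screen was run in cells labelled p53 WT and in cells labelled p53 KO. The 2 groups of main interest were p53 KO cells kept for 96 h in DMSO, the solvent control, and p53 KO cells kept for 96 h in 5 µM etoposide. Each had 3 libraries, lettered A, B and C, so that 6 of the 28 samples of the series were compared. The sample titles call the control group untreated, and the treatment labels give DMSO. All guides were used, summed per gene, and the 19044 of 19050 genes with 3 or more guides were tested. The same 2 treatments in p53 WT cells, and cells of both genotypes taken at the start (T0), served for comparison. The making of the p53 knockout, the number of clones behind it, the name of the guide library and the time from guide delivery to T0 were not given in the sources used here.

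In such a screen each cell carries 1 or few guide RNAs, which direct the Cas9 nuclease to cut and disable a gene. Counting the guides in genomic DNA then gives the share of cells that carry each knockout. A guide whose share is higher after the drug marks a gene whose loss left relatively more cells than in DMSO, and a guide whose share is lower marks a gene whose loss left relatively fewer. Etoposide traps topoisomerase II, the enzyme that passes 1 DNA duplex through another, in the middle of its reaction, while it is bound to cut DNA ends. The trapped complexes turn into DNA double-strand breaks, which are sensed by the ATM and ATR kinases and rejoined mainly by non-homologous end joining. In cells with p53, breaks also stabilise this transcription factor, which raises the arrest gene CDKN1A (p21) and several death genes. Cells without p53 lack that response, and other routes of arrest, repair and death can be compared in them.

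The 3 DMSO libraries held 36.3, 39.8 and 41 M counts and the 3 etoposide libraries 37.5, 30.4 and 32 M, with a median of 246 to 333 counts per guide. The table held 109367 guides, of which 999 were non-targeting, and 13928 of the tested genes had 6 guides. Within each group, counts of any 2 libraries differed by 3.58 to 5.68 times the sampling variance, so that none looked like a copy of another. A gene's level is given here as its guides' summed CPM (counts relative to library size, which was scaled by the TMM method), which depends on how many guides the gene had and is therefore not compared between genes. Changes are log2 fold changes, etoposide against DMSO in KO cells, with their standard error (SE), and a gene was called at an adjusted p under 0.05 in edgeR's quasi-likelihood test with Benjamini-Hochberg adjustment over all 19044 genes. The labels do not say whether libraries A, B and C were grown as separate cultures, and the p-values measure only the spread between these samples, which may be technical. A call is described as lost without DMSO A where it no longer passed the threshold when DMSO library A was left out, and likewise for the other libraries. Counts of the guide HGLibA_07318 against CASP6 stood far apart between libraries of 1 group, and they are described with the apoptosis genes.

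Guides against 581 genes were at a higher share in etoposide than in DMSO (3.05% of the genes tested), and guides against 225 genes were at a lower share (1.18%), making 806 called genes (4.23%). The higher genes were led by parts of the mitochondrial ribosome, MYC, RNase P, ATP synthase and TOP2A, the target of the drug. The lower genes included KLF5, SREBF2, the DNA ligase LIG4, parts of the linear ubiquitin ligase and TSC2. The changes were uneven in size: 25 genes rose by more than 0.5 on the log2 scale, whereas the deepest loss, that of KLF5, fell by 21.2% and 12 genes fell by more than 0.25. The 3 etoposide libraries did not overlap the 3 DMSO libraries for 551 of the 581 higher and 207 of the 225 lower genes, beside 18.4% of all genes tested. Of the called genes, 563 higher and 217 lower ones had at least 2 of every 3 guides moving in the gene's direction. With libraries scaled to the non-targeting guides in place of TMM, 835 genes were higher and 107 lower, so that the higher share of calls went from 72.1% to 88.6%, while the median of all genes moved from −0.0032 to 0.0161. Leaving out the etoposide library A left 399 higher and 120 lower genes.

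Single guides were tested in the same way. Of the 109367 guides, 691 were called higher and 229 lower (0.841% in all), among them 2 of the 999 non-targeting guides. The log2 fold changes of the non-targeting guides had a median of −0.02 and an SD of 0.133, against an SD of 0.191 for guides that target a gene. Among the genes called higher 122 had at least 2 called guides, and among the genes called lower 2 did, with guides called in either direction counted. The guide identifiers begin with HGLibA or HGLibB. The mean of the single-guide log2 fold changes was taken for each kind. Both means had the same sign as the whole gene for 556 of the 581 higher and 218 of the 225 lower genes. Over the 19038 genes with both kinds, both means were positive for 5110 and both negative for 5289. Calls on 1 kind of guide alone, made from counts summed over that kind, rest on fewer guides. Of the 90 called genes that the naming rule gave, 29 lost the call on HGLibA guides and 45 on HGLibB guides. On at least 1 kind, 60 lost it. On HGLibB guides TOP2A, MRPL33, KLF5 and RNF31 missed the threshold (adjusted p = 0.0607, 0.12, 0.159 and 0.387), as did LIG4, TRAF2 and RBCK1 on HGLibA guides (adjusted p = 0.143, 0.326 and 0.219). The TOP2A change was 0.85 on HGLibA guides and 0.25 on HGLibB guides, and the MRPL33 change 0.91 and 0.32. The RNF31 change was −0.54 and −0.13. Without the etoposide library A, 579 guides were called, and without library B, 511.

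TOP2A, the topoisomerase II isoform of dividing cells and the main target of etoposide there, was among the highest genes. Its guides stood at 49.98, 54.2 and 51.4 CPM in DMSO libraries A, B and C and at 72.4, 76.03 and 84.7 CPM in etoposide. All 3 etoposide libraries were above all 3 DMSO libraries, and the change was 0.58 ± 0.06 (adjusted p = 8.09e-13, 5 of 6 guides up, 3 of them called). TOP2B, the isoform that dividing and resting cells share, was at 0.003 ± 0.05 (adjusted p = 0.987). TDP2, which frees topoisomerase II from the DNA ends it is bound to, stood at 37.4, 40.6 and 44.8 CPM in DMSO and 35.9, 38.5 and 35.96 CPM in etoposide, groups that overlapped, and its change was −0.16 ± 0.06 (adjusted p = 0.146). The TDP2 value passed the threshold with limma on the mean over guides (−0.24, adjusted p = 0.026) and without its most abundant guide (−0.29, adjusted p = 0.0224). TDP1, a related enzyme with a preference for topoisomerase I adducts, was at −0.08 ± 0.07 (adjusted p = 0.575). PML, which organises nuclear bodies that take part in repair and protein modification, was at −0.16 ± 0.06 (adjusted p = 0.127). Of the 11 genes on the list of topoisomerase II and the removal of its adducts, TOP2A alone was called, and the list's median was −0.08, beside −0.0032 over all genes. The list's called share was 9.09%, beside 4.23% of all genes.

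On the lists of end joining and recombination, LIG4 was the one gene that fell. LIG4 encodes DNA ligase IV, which seals the break in non-homologous end joining. Its guides stood at 55.5, 56.5 and 55.6 CPM in DMSO and 43.3, 48.4 and 47.7 CPM in etoposide, with no overlap, a change of −0.27 ± 0.05 (adjusted p = 0.000153). All 6 guides had negative values, from −0.04 to −0.92, and 2 were called. The other 18 members of the end joining list were not called. C9orf142 (PAXX), a Ku-binding factor, was at −0.11 ± 0.05 (adjusted p = 0.196), and APLF, which retains the ligase complex at breaks, at −0.13 ± 0.06 (adjusted p = 0.23). PRKDC, the catalytic subunit of DNA-PK, was at −0.06 ± 0.05, XRCC4, the partner of ligase IV, at −0.0044 ± 0.06, and XRCC5 (Ku80) at −0.11 ± 0.06, with adjusted p-values of 0.579, 0.982 and 0.398. The list's median was −0.05, and its called share, 5.26%, was near the 4.23% of all genes. None of the 36 genes of homologous recombination and the Fanconi anaemia pathway was called (0%, beside 4.23% of all genes), with a median of 0.0067. FAM175A (Abraxas), a scaffold of a BRCA1 complex, had the smallest p there (−0.15 ± 0.05, adjusted p = 0.0987), followed by RAD52, an annealing factor (0.17 ± 0.06, adjusted p = 0.11), and FAN1, a repair nuclease (0.11 ± 0.05, adjusted p = 0.212).

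None of the 13 genes of the ATM branch and break sensing was called (0%, beside 4.23% of all genes). ATM itself was at −0.08 ± 0.06 (adjusted p = 0.571), and MDC1, the adaptor that binds marked chromatin at breaks, at −0.12 ± 0.05 (adjusted p = 0.168). On the list of ATR, its 9-1-1 clamp and CHK1, 2 of 18 genes fell (11.1%, beside 1.18% of all genes). Values were negative for 14 of the 18, with a median of −0.03. HUS1, the clamp subunit that forms a ring with RAD9A and RAD1, was at 32.8, 32.1 and 27.8 CPM in DMSO and 24.96, 24.5 and 27.6 CPM in etoposide. DMSO library C and etoposide library C of HUS1 were nearly equal, the groups did not overlap, and the change was −0.27 ± 0.07 (adjusted p = 0.0129). The call of HUS1 was lost without DMSO A or B, or etoposide A or B (adjusted p up to 0.0945). ATR, the kinase recruited to single-stranded DNA, stood at 43.9, 45.4 and 48.9 CPM in DMSO and 39.3, 38.2 and 41.9 CPM in etoposide, −0.21 ± 0.06 (adjusted p = 0.0155), again without overlap, and its call was lost without DMSO C, or etoposide A or B (adjusted p up to 0.134). RAD9A was at −0.19 ± 0.07 (adjusted p = 0.134), RAD1 at −0.12 ± 0.05 (adjusted p = 0.142) and CHEK1, the kinase that ATR activates, at −0.02 ± 0.06 (adjusted p = 0.902), none of them called.

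No regulator or arrest target of p53 on the list made for them was called in the KO cells (0%, beside 4.23% of all genes). Guide counts do not report the genotype of the host cells, so the p53 knockout itself was not checked here. CDKN1A was at 48.3, 43.3 and 47.9 CPM in DMSO and 41.1, 42.9 and 40.2 CPM in etoposide, without overlap, a change of −0.17 ± 0.06 that missed the threshold (adjusted p = 0.0706), beside −0.48 ± 0.06 in WT cells. The difference for CDKN1A, 0.31 ± 0.08, missed it too (adjusted p = 0.107), while DESeq2 called both (adjusted p = 0.0225 and 0.0119). MDM2, the ubiquitin ligase that degrades p53, was at −0.08 ± 0.07 (adjusted p = 0.646).

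MYC, a transcription factor that drives growth and ribosome production, had the highest change of any gene in which all 6 guides were called. MYC guides stood at 38.8, 35.9 and 39.6 CPM in DMSO and 62.9, 59.9 and 62.6 CPM in etoposide. Every etoposide library lay above every DMSO library, and the change was 0.70 ± 0.06 (adjusted p = 1.01e-18), or 1.62-fold. Single MYC guides rose by 0.45 to 1.39. MAX, the obligate partner of MYC, was at 0.16 ± 0.06 (adjusted p = 0.146), and MNT, a repressor that competes with MYC for MAX, was called lower at −0.18 ± 0.05 (adjusted p = 0.0344), a call that was lost without DMSO A or B, or etoposide A or B (adjusted p up to 0.152). The other 13 of the 15 genes in the MYC network were not called, so that the called share was 13.3%, beside 4.23% of all genes.

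Cell cycle genes moved in both directions. TFDP1, the dimer partner of the E2F factors that turn on S-phase genes, rose from 60.4, 57.7 and 57.8 CPM to 70.2, 73.03 and 68.7 CPM, 0.27 ± 0.05 (adjusted p = 2.54e-05), and all 6 guides were up. E2F1 itself rose by 0.23 ± 0.05 (adjusted p = 0.00318), a call that was lost without etoposide B (adjusted p = 0.0558). FZR1, which activates the anaphase-promoting ubiquitin ligase in G1, fell from 55.01, 51.3 and 53.5 CPM to 46.7, 42.98 and 41.6 CPM, without overlap (−0.28 ± 0.05, adjusted p = 0.000142, 6 of 6 guides). CDK2, the kinase of the G1/S transition, was at −0.22 ± 0.06 (adjusted p = 0.00794), and this call was lost without DMSO A (adjusted p = 0.143). CCNA2 (cyclin A2), which activates CDK2 in S phase and CDK1 in G2, was at 24.96, 27.3 and 26.7 CPM in DMSO and 19.5, 22.5 and 22.2 CPM in etoposide, −0.30 ± 0.07 (adjusted p = 0.00525), and was lost without etoposide A (adjusted p = 0.0999). FOXM1, a transcription factor of G2 genes, was called lower too (−0.19 ± 0.06, adjusted p = 0.0433), and was lost without DMSO A or B, or etoposide B or C (adjusted p up to 0.289). The list of G1 cyclins, their kinases and RB1 thus had 2 higher and 2 lower of 19, that of G2 and M phase 0 higher and 2 lower of 22, and DNA replication 0 of 47, with medians of 0.02, 0.02 and −0.0079. Their called shares were 21.1%, 9.09% and 0%, beside 4.23% of all genes. The replication median turned to 0.01 with non-targeting scaling.

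**Figure D1:**
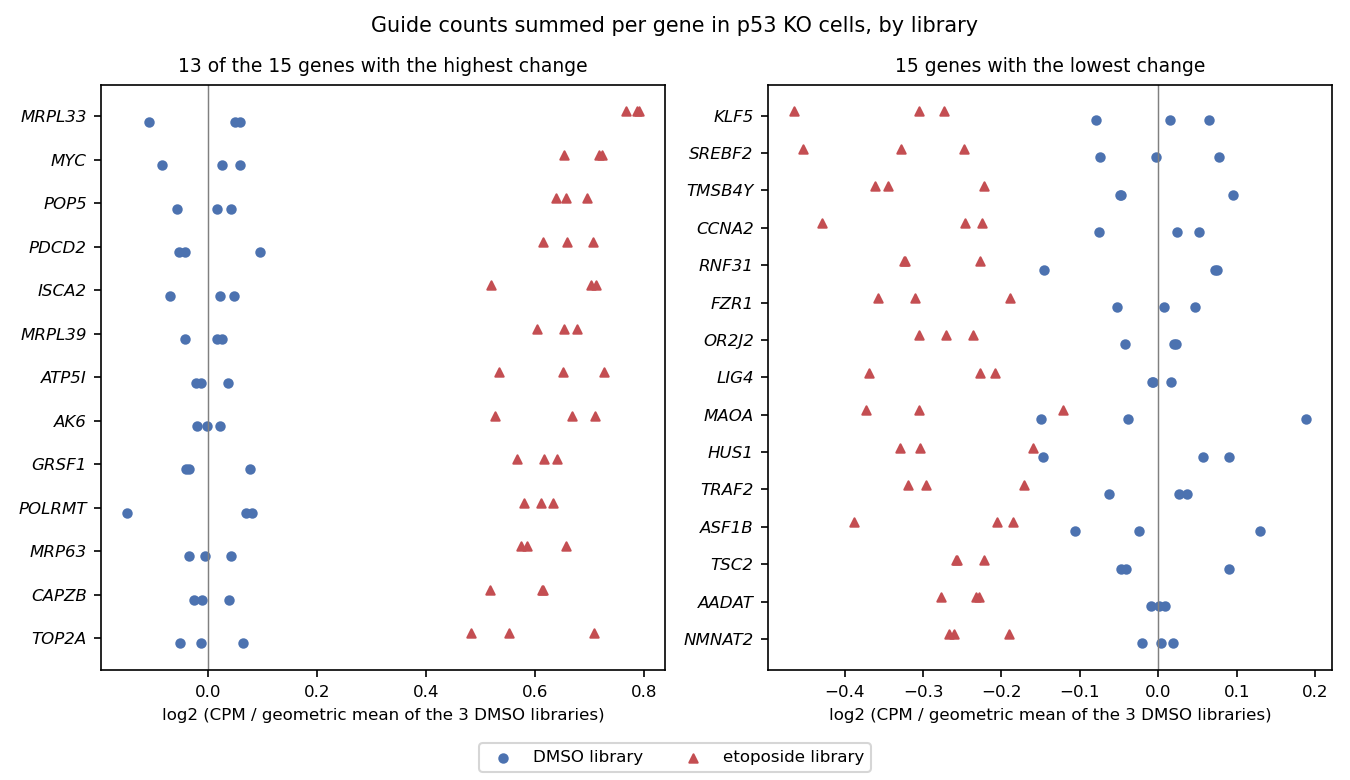
Level of each named gene in every KO library, as log2 CPM relative to the geometric mean of its 3 DMSO libraries (x axis, log2 units). Genes are on the y axis: 13 of the 15 highest and the 15 lowest called genes, with 1 point per library. The DMSO points lie near 0, the etoposide points of MRPL33 lie highest and those of KLF5 and SREBF2 lowest, and MAOA is the gene shown whose groups overlap.

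Apoptosis is the death route that p53 is best known to start, through BH3-only proteins that release cytochrome c from mitochondria, after which APAF1 and caspase-9 form the apoptosome and activate the executioner caspases. Of 11 BH3-only proteins and pore formers, PMAIP1 (NOXA), which neutralises MCL1, was the only one called. That is a called share of 9.09%, beside 4.23% of all genes. PMAIP1 guides stood at 62.6, 66.2 and 59.5 CPM in DMSO and 76.1, 78.6 and 75.9 CPM in etoposide, all of the latter higher, with 6 of 6 guides up and a change of 0.29 ± 0.05 (adjusted p = 2.42e-06). The pore formers BAK1 (0.11 ± 0.05, adjusted p = 0.29) and BAX (0.09 ± 0.05, adjusted p = 0.306) were not called, nor was any of the 6 anti-apoptotic BCL2 family genes, of which BCL2L1 (BCL-XL) had the smallest p (−0.12 ± 0.05, adjusted p = 0.192). BCL2L1 passed the threshold with limma on the mean over guides (−0.25, adjusted p = 0.0352) and on HGLibB guides alone (−0.38, adjusted p = 0.045). CYCS, cytochrome c, which also carries electrons in respiration, rose from 49.4, 50.9 and 45.8 CPM to 60.6, 63.1 and 58.8 CPM (0.32 ± 0.05, adjusted p = 5.28e-06, 5 of 5 guides). CASP9 (caspase-9) was at 0.18 ± 0.05 (adjusted p = 0.0344) with 6 of 6 guides up, and its call was lost without DMSO B, or etoposide A, B or C (adjusted p up to 0.231). APAF1, its scaffold, was at 0.18 ± 0.06 with 5 of 5 guides up and missed the threshold (adjusted p = 0.0528).

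CASP6, an executioner caspase, was called higher as well, and its value rested on 1 guide. CASP6 stood at 91.2, 98.7 and 1322 CPM in DMSO and 228, 3837 and 259.9 CPM in etoposide, 1.52 ± 0.47 (adjusted p = 0.044), and the groups overlapped. The guide HGLibA_07318 against CASP6 had 2066, 2591 and 51786 counts in the DMSO libraries and 7062, 112931 and 7048 in the etoposide libraries, beside a median of 246 to 333 counts for all guides. DMSO library C and etoposide library B were therefore the high ones. On the HGLibB guides alone CASP6 was at −0.09 (adjusted p = 0.757). The CASP6 call was lost without DMSO A or B, or etoposide B (adjusted p up to 0.298), and without etoposide B the value was −1.05. In p53 WT cells it had the other sign, −0.73 ± 0.47. The cause of these counts was not tested. Leaving out the guide gave 808 called genes in place of 806, with 571 higher and 237 lower in place of 581 and 225, so that calls of other genes moved too.

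Death receptor signalling gave mostly small negative values. Of 11 genes for death receptors, caspase-8 and its inhibitor CFLAR (FLIP), 10 were negative and none was called, with a median of −0.07. CFLAR had the smallest p (−0.14 ± 0.05, adjusted p = 0.0945), and it passed the threshold with limma on the mean over guides (adjusted p = 0.0163) and without its most abundant guide (adjusted p = 0.0306). On the list of the linear ubiquitin ligase and TNF receptor signalling, 5 of 24 genes fell and 1 rose, 20 were negative, and the median was −0.07. Over all genes, 1.18% were called lower and 3.05% higher, and 9825 of 19044 were negative. The linear ubiquitin chain assembly complex attaches chains to the TNF receptor complex, which hold the signal on the path to NF-κB and away from caspase-8. RNF31 (HOIP), its catalytic subunit, fell from 55.6, 47.7 and 55.5 CPM to 42.2, 42.1 and 45.1 CPM, without overlap, with all 6 guides down (−0.29 ± 0.05, adjusted p = 7.02e-05). RBCK1 (HOIL-1), the second ligase subunit, fell from 66.2, 66.2 and 60.9 CPM to 57.1, 55.1 and 52.5 CPM (−0.23 ± 0.05, adjusted p = 0.000819), also without overlap. SHARPIN, the remaining subunit, was at −0.14 ± 0.06 and not called (adjusted p = 0.178). TRAF2, the adaptor that brings ubiquitin ligases to the TNF receptor, fell from 57.9, 61.96 and 61.6 CPM to 48.4, 49.2 and 53.7 CPM (−0.26 ± 0.05, adjusted p = 0.000138). MAP3K7 (TAK1), a kinase that passes the signal on, was at −0.17 ± 0.05 (adjusted p = 0.0153, lost without DMSO B, or etoposide A, adjusted p up to 0.136) and its partner TAB1 at −0.20 ± 0.06 (adjusted p = 0.0394, lost without DMSO A or C, or etoposide A or B, adjusted p up to 0.298). CHUK (IKKα), a kinase further down, rose by 0.20 ± 0.05 (adjusted p = 0.00948), a call that was lost without DMSO C, or etoposide A or C (adjusted p up to 0.0758). With non-targeting scaling the list had 4 lower genes and 1 higher. Over the settings tried, its lower calls ran from 1 to 5 and its higher calls from 0 to 1.

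The lists of other death routes and of drug export were short, and their called shares stand beside 4.23% of all genes: 23.1% for the mitochondrial permeability transition, 16.7% for PARP1 and AIFM1, 7.69% for ferroptosis and 0% for the remaining ones. None of 10 necroptosis and pyroptosis genes and none of 9 drug efflux transporters was called; ABCB1 (P-glycoprotein), which exports etoposide, was at −0.10 ± 0.06 (adjusted p = 0.432). ABCB1 was however at −0.30 with limma on the mean over guides (adjusted p = 0.00736) and at −0.32 without its most abundant guide (adjusted p = 0.00941). AIFM1, a mitochondrial flavoprotein needed for respiratory chain assembly that is also released in PARP1-dependent death, rose from 52.8, 57.9 and 59.1 CPM to 71.5, 77.4 and 75.9 CPM with all 6 guides up (0.40 ± 0.05, adjusted p = 2.64e-10), the 1 called gene of 6 on its list, while PARP1 was at −0.09 ± 0.05 (adjusted p = 0.381). Of 13 genes of the mitochondrial permeability transition, HK2, a hexokinase bound to the outer membrane (0.19 ± 0.05, adjusted p = 0.0119), MCU, the pore of the calcium uniporter (0.19 ± 0.05, adjusted p = 0.0259), and SLC25A3, the phosphate carrier (0.20 ± 0.06, adjusted p = 0.0498), were called higher. All 3 depended on single libraries: HK2 was lost without DMSO B or C, or etoposide A (adjusted p up to 0.0982), MCU without DMSO B or C, or etoposide C (adjusted p up to 0.393) and SLC25A3 without DMSO A, B or C, or etoposide A or C (adjusted p up to 0.193). GPX4, which repairs lipid peroxides and so blocks ferroptosis, was the only called gene of 13 on the ferroptosis list. GPX4 guides stood at 39.4, 34.9 and 39.2 CPM in DMSO and 44.03, 42.5 and 46.2 CPM in etoposide, 0.23 ± 0.06 (adjusted p = 0.0114), and the call was lost without DMSO B, or etoposide C (adjusted p up to 0.142). ACSL4, which supplies the lipids that are oxidised in ferroptosis, was at 0.14 ± 0.05 (adjusted p = 0.0744).

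Genes of mitochondrial translation formed the largest group of higher genes. Mitochondria have their own ribosome, which makes core subunits of the respiratory chain from mitochondrial RNA, while its protein parts are encoded in the nucleus. Of 76 mitochondrial ribosomal proteins, 39 rose and 0 fell, 71 were positive, and the median was 0.18. The called share was 51.3%, beside 3.05% of all genes called higher. In all 39 the etoposide libraries lay above the DMSO libraries, as they did in 551 of the 581 higher genes. The large subunit (MRPL symbols) had 27 of 47 called with a median of 0.20, and the small subunit (MRPS symbols) 12 of 29 with a median of 0.14. The list's called genes that kept the call with each of the 6 libraries left out in turn numbered 24. MRPL33 guides stood at 35.5, 39.9 and 39.6 CPM in DMSO and 65.2, 66.1 and 66.3 CPM in etoposide, a change above that of every other gene in the plot of levels by library (0.78 ± 0.05, 1.72-fold, adjusted p = 7.4e-22). MRPL39 went from 43.2, 42.9 and 41.2 CPM to 66.8, 64.5 and 67.9 CPM (0.65 ± 0.05, adjusted p = 1.01e-18), and MRPL34 from 37.4, 38.6 and 37.4 CPM to 52.7, 54.8 and 60.8 CPM (0.57 ± 0.06, adjusted p = 2.76e-13). MRP63, another protein of this ribosome that the list's symbols did not cover, went from 34.95, 35.7 and 36.9 CPM to 56.5, 53.4 and 53.7 CPM (0.61 ± 0.06, adjusted p = 1.56e-13). In all 4 genes every etoposide library lay above every DMSO library.

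Factors that supply this ribosome with RNA were also among the higher genes. POLRMT, the RNA polymerase of mitochondria, rose from 18.7, 18.6 and 15.95 CPM to 27.4, 27.02 and 26.4 CPM (0.61 ± 0.08, adjusted p = 3.91e-09), and GRSF1, an RNA-binding protein of mitochondrial RNA granules, from 42.1, 45.6 and 42.2 CPM to 66.4, 67.5 and 64.1 CPM (0.61 ± 0.05, adjusted p = 4.71e-16). Neither gene's groups overlapped. Of 17 mitochondrial aminoacyl-tRNA synthetases, which charge tRNAs with amino acids, 9 rose (52.9%, beside 3.05% of all genes) and 0 fell. Their median was 0.17, and 6 of the 9 calls were kept with each library left out. SARS2, for serine, rose by 0.51 ± 0.05 (adjusted p = 4.85e-13), MARS2, for methionine, by 0.49 ± 0.06 (adjusted p = 8.43e-11), and RARS2, for arginine, by 0.38 ± 0.06 (adjusted p = 1.46e-06). Of 18 mitochondrial proteases and chaperones, 8 rose (44.4%) and 0 fell (median 0.18), though only 2 of the calls held with every library left out. Those were LONP1, the matrix protease, which rose from 37.4, 37.1 and 33.6 CPM to 51.8, 52.2 and 50.1 CPM (0.51 ± 0.06, adjusted p = 3.52e-11), and HSPE1, the co-chaperonin HSP10 (0.31 ± 0.05, adjusted p = 6.1e-06, and 0.0881 without its most abundant guide). ISCA2, which assembles iron-sulfur clusters in mitochondria and stands outside these lists, rose from 40.6, 39.9 and 37.4 CPM to 64.3, 63.9 and 56.3 CPM (0.65 ± 0.06, adjusted p = 8.84e-16).

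The respiratory chain and glycolysis both held higher genes and no lower ones. Called shares were 32.4% for complex I, 37% for complexes III and IV, 37.5% for ATP synthase and 52.6% for glycolysis. Of all genes, 3.05% were called higher. Complex I had 12 higher of 37 (median 0.09), complexes III and IV 10 of 27 (0.12) and ATP synthase 6 of 16 (0.16), and 4, 7 and 5 of these calls held with each library left out. ATP5I, subunit e of ATP synthase, rose from 37.5, 36.3 and 36.02 CPM to 60.6, 57.5 and 53.02 CPM (0.64 ± 0.06, adjusted p = 4.54e-16), without overlap. ATP5B, the catalytic beta subunit, rose by 0.42 ± 0.05 (adjusted p = 2.66e-09), UQCRC1, a core protein of complex III, by 0.34 ± 0.06 (adjusted p = 4.13e-05), and NDUFB8, an accessory subunit of complex I, by 0.35 ± 0.05 (adjusted p = 1.23e-06). Glycolysis had 10 higher of 19 with a median of 0.17, and 7 calls held with each library left out. PGAM1, phosphoglycerate mutase, went from 42.4, 46.6 and 40.9 CPM to 54.4, 59.6 and 62.9 CPM (0.44 ± 0.06, adjusted p = 9.78e-10). GAPDH was at 0.44 ± 0.06 (adjusted p = 9.36e-09) and ENO1 (enolase) at 0.41 ± 0.06 (adjusted p = 1.81e-07). On HGLibA guides alone GAPDH was at 0.17 and missed the threshold (adjusted p = 0.245), against 0.80 on HGLibB guides. GAPDH and the ribosomal protein genes below have many processed pseudogenes that their guides may also match, which was not checked.

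Cytosolic translation held higher genes and no lower ones. The ribosomal protein list had 31.5% called and the initiation factor list 33.3%, beside 3.05% of all genes called higher. Of 89 cytosolic ribosomal proteins, 28 rose and 0 fell, 81 were positive and the median was 0.17; 10 of the 28 calls held with each library left out. The large subunit (RPL symbols) had 17 of 52 and the small subunit (RPS symbols) 10 of 35, with medians of 0.18 and 0.14. RPL28 rose from 34.9, 36.03 and 37.01 CPM to 56.4, 51.9 and 51.5 CPM (0.57 ± 0.06, adjusted p = 1.39e-12) and RPS24 from 41.6, 41.2 and 43.5 CPM to 58.7, 56.2 and 49.3 CPM (0.38 ± 0.06, adjusted p = 3.28e-07), both without overlap. PDCD2, a chaperone of a small-subunit protein, rose from 41.2, 45.7 and 41.5 CPM to 69.8, 67.5 and 65.4 CPM (0.66 ± 0.05, adjusted p = 1.01e-18), and AK6, a nucleotide kinase that takes part in small-subunit maturation, by 0.64 ± 0.07 (adjusted p = 7.73e-13). Translation initiation factors were higher for 10 of 30, led by EIF6, which keeps free large subunits from joining (29.5, 29.9 and 29.4 CPM in DMSO, 41.1, 42.8 and 40.2 CPM in etoposide, 0.48 ± 0.07, adjusted p = 2.56e-08). EIF4G1, the scaffold of the cap-binding complex, rose by 0.37 ± 0.06 (adjusted p = 3.79e-06), with 0.63 on HGLibA guides and 0.13 on HGLibB guides, where it missed the threshold (adjusted p = 0.491). Of the 10 initiation calls, 3 held with each library left out.

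Enzymes that process and modify tRNA were a further group. RNase P trims the leader of tRNA precursors and shares most of its protein subunits with RNase MRP, which cuts ribosomal RNA precursors. Of their 10 subunits, 4 rose (40%, beside 3.05% of all genes), and all 10 were positive (median 0.16). All 4 calls held with each library left out. POP5 guides stood at 37.1, 37.8 and 35.2 CPM in DMSO and 57.2, 59.5 and 57.8 CPM in etoposide, without overlap, a change of 0.66 ± 0.06 (adjusted p = 9.83e-17) with 6 of 6 guides up. POP7 rose by 0.38 ± 0.06 (adjusted p = 8.45e-07), RPP38 by 0.35 ± 0.06 (adjusted p = 1.57e-06) and RPP40 by 0.24 (adjusted p = 0.000331). Elongator and KEOPS modify tRNA bases in and next to the anticodon. The list made for them held 17 genes, some from outside both complexes. Of the 17 genes 8 rose (47.1%, median 0.16), 5 of them with each library left out. The 8 include MOCS3 and URM1, which are subunits of neither complex, and MOCS3 is also among the 5. TP53RK, the kinase of KEOPS, which despite its name is best known for tRNA modification, went from 21.9, 22.7 and 22.3 CPM to 31.2, 34.9 and 31.9 CPM (0.55 ± 0.07, adjusted p = 1.01e-08). ELP3, the catalytic subunit of Elongator, rose by 0.47 ± 0.05 (adjusted p = 6.67e-11), and ELP5 by 0.45 ± 0.06 (adjusted p = 7.29e-09), with 0.89 on HGLibB guides and 0.12 on HGLibA guides, where it missed the threshold (adjusted p = 0.486). Of 20 cytosolic aminoacyl-tRNA synthetases 6 rose (30%), with a median of 0.11. YARS, for tyrosine (0.31 ± 0.06, adjusted p = 2.17e-05), was the one call that held with each library left out. On HGLibB guides alone YARS was at 0.12 and missed the threshold (adjusted p = 0.599).

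**Figure D2:**
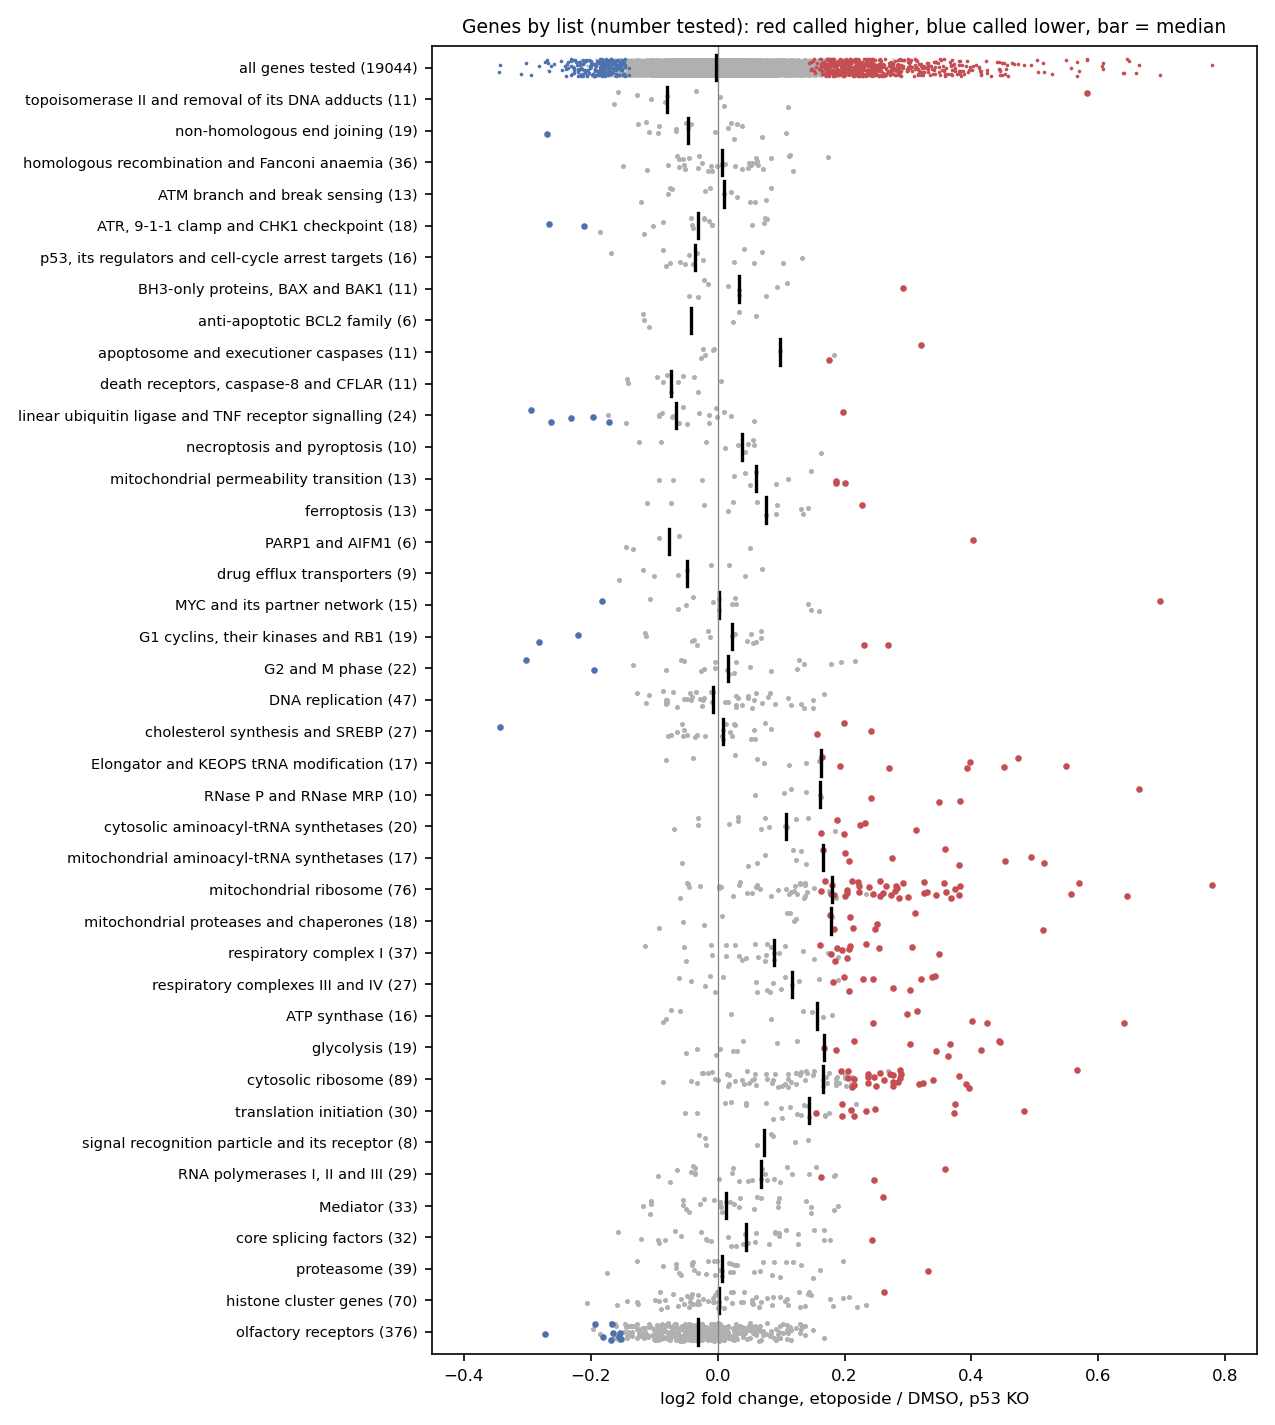
Log2 fold change, etoposide against DMSO in KO cells, of each gene (points) by gene list (y axis), with the list's median as a vertical bar and called genes in colour. Values beyond the axis, that of CASP6 among them, are not drawn. The medians of mitochondrial and cytosolic translation, tRNA processing, ATP synthase and glycolysis lie between 0.11 and 0.18, and those of repair, checkpoint, replication and proteasome genes lie near 0.

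Several other kinds of machinery that dividing cells need had called shares near or below the 3.05% of all genes called higher: 2.56% for the proteasome, 3.12% for core splicing factors, 3.03% for Mediator and 1.43% for histone cluster genes, while RNA polymerases had 10.3%. The proteasome had 1 higher gene of 39 (PSMD3, a lid subunit, 0.33 ± 0.07, adjusted p = 0.000803), core splicing factors 1 of 32 (SNRNP70, of the U1 particle, 0.24 ± 0.05, adjusted p = 0.000873) and Mediator 1 of 33 (MED23, 0.26 ± 0.06, adjusted p = 0.00277, lost without DMSO A, adjusted p = 0.0534). RNA polymerases I, II and III had 3 of 29, of which POLR3K, a subunit of polymerase III, held with each library left out (0.36 ± 0.06, adjusted p = 3.85e-05). POLR1C was at 0.25 ± 0.06 (adjusted p = 0.00277, lost without etoposide A, adjusted p = 0.058) and POLR1E at 0.16 ± 0.05 (adjusted p = 0.0344, lost without DMSO A, or etoposide A, B or C, adjusted p up to 0.378). Without each gene's most abundant guide, PSMD3 and SNRNP70 missed the threshold (adjusted p = 0.05 and 0.0586). The signal recognition particle had 0 of 8. Histone cluster genes had 1 of 70, HIST1H1B, whose groups overlapped (0.26 ± 0.08, adjusted p = 0.0287) and whose call was lost without DMSO A or C, or etoposide A or C (adjusted p up to 0.36). None of these lists held a lower gene, and their medians lay between 0.0017 and 0.07. Olfactory receptors, which are not known to act in bone tumour cells, had 9 lower and 0 higher of 376 with a median of −0.03. With non-targeting scaling they had 5 lower and 2 higher with a median of −0.01. Their lower share in the main fit, 2.39%, was above the 1.18% of all genes called lower. Negative values were found for 255 of the 376 receptors, beside 9825 of all 19044 genes. OR2J2 was the lowest of them (−0.27 ± 0.06, adjusted p = 0.00288), and it was the call among the 9 that held with each library left out.

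The deepest losses came from genes of several kinds. KLF5, a zinc finger transcription factor, stood at 49.00, 45.9 and 50.7 CPM in DMSO and 40.1, 35.1 and 39.2 CPM in etoposide, without overlap, with 5 of 5 guides down (−0.34 ± 0.06, adjusted p = 8.63e-06). SREBF2, the transcription factor that turns on cholesterol synthesis, fell from 40.7, 38.5 and 36.6 CPM to 28.2, 32.5 and 30.7 CPM with 5 of 5 guides down (−0.34 ± 0.07, adjusted p = 0.00016). Of the 27 genes of that pathway, SREBF2 was the only lower one, while IDI1 (isopentenyl diphosphate isomerase, 0.24 ± 0.06), HMGCS1 (HMG-CoA synthase, 0.20 ± 0.06) and MVK (mevalonate kinase, 0.16 ± 0.05) were called higher with adjusted p-values of 0.0129, 0.0319 and 0.037. The pathway's called share was 14.8%, beside 4.23% of all genes. IDI1 was lost without etoposide A (adjusted p = 0.14), HMGCS1 without DMSO A or C, or etoposide A or C (adjusted p up to 0.147) and MVK without any 1 of the 6 libraries (adjusted p up to 0.154). TSC2, which holds back the growth kinase complex mTORC1, fell from 67.3, 67.6 and 74.05 CPM to 58.2, 59.7 and 58.3 CPM with 6 of 6 guides down (−0.25 ± 0.05, adjusted p = 0.000297). AADAT, a mitochondrial aminotransferase of lysine and kynurenine breakdown, fell from 74.99, 74.6 and 74.1 CPM to 63.6, 63.5 and 61.5 CPM (−0.25 ± 0.05, adjusted p = 8.13e-05), and TMSB4Y, a thymosin gene, was called lower at −0.31 ± 0.07 (adjusted p = 0.00252). Without each gene's most abundant guide, TSC2, AADAT and TMSB4Y missed the threshold (adjusted p = 0.0662, 0.185 and 0.106). ASF1B, a histone chaperone (−0.26 ± 0.07, adjusted p = 0.00898), was lost without DMSO B, or etoposide B (adjusted p up to 0.144). NMNAT2, an enzyme of NAD synthesis (−0.24 ± 0.06, adjusted p = 0.0137), was lost without etoposide A or C (adjusted p up to 0.0701). MAOA, a monoamine oxidase, had overlapping groups (−0.27 ± 0.08, adjusted p = 0.034) and was lost without DMSO C, or etoposide B or C (adjusted p up to 0.324). CAPZB, the beta subunit of the protein that caps actin filaments, was the remaining gene among the 15 highest and rose from 27.7, 27.9 and 28.9 CPM to 43.1, 40.3 and 43.2 CPM (0.58 ± 0.06, adjusted p = 2.73e-12).

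Growth without the drug was set beside these changes in p53 WT cells. Their libraries are not part of the KO contrast, though they entered the same fit and its estimate of the spread. Of the 581 higher genes, 517 (89.0%) had a negative change in WT cells between T0 and 96 h in DMSO, with a median of −0.175, and of the 225 lower genes 94 (41.8%) did, against 47.3% of all genes and a median of 0.0048. Among the 36 genes whose WT growth change was at or under −0.5, 25 (69.4%) were higher in KO cells under etoposide and 1 was lower, with a median KO change of 0.35. Between −0.5 and −0.25 there were 160 higher and 0 lower of 455 genes (35.2% higher), and between −0.25 and −0.1 there were 212 higher and 16 lower of 1913 (11.1% higher). Of the 15090 genes between −0.1 and 0.1, 175 were higher and 188 lower, and of the 1550 genes above 0.1, 9 were higher and 20 lower. Over these 5 classes the share of higher calls thus ran from 0.581% to 69.4% and that of lower calls from 0% to 2.78%. In KO cells, DMSO against T0 had a median of −0.175 over the higher genes and etoposide against T0 one of 0.0813. Over the lower genes these medians were 0.0933 and −0.0901. Both KO values share libraries with the etoposide comparison, so they are only set side by side.

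**Figure D3:**
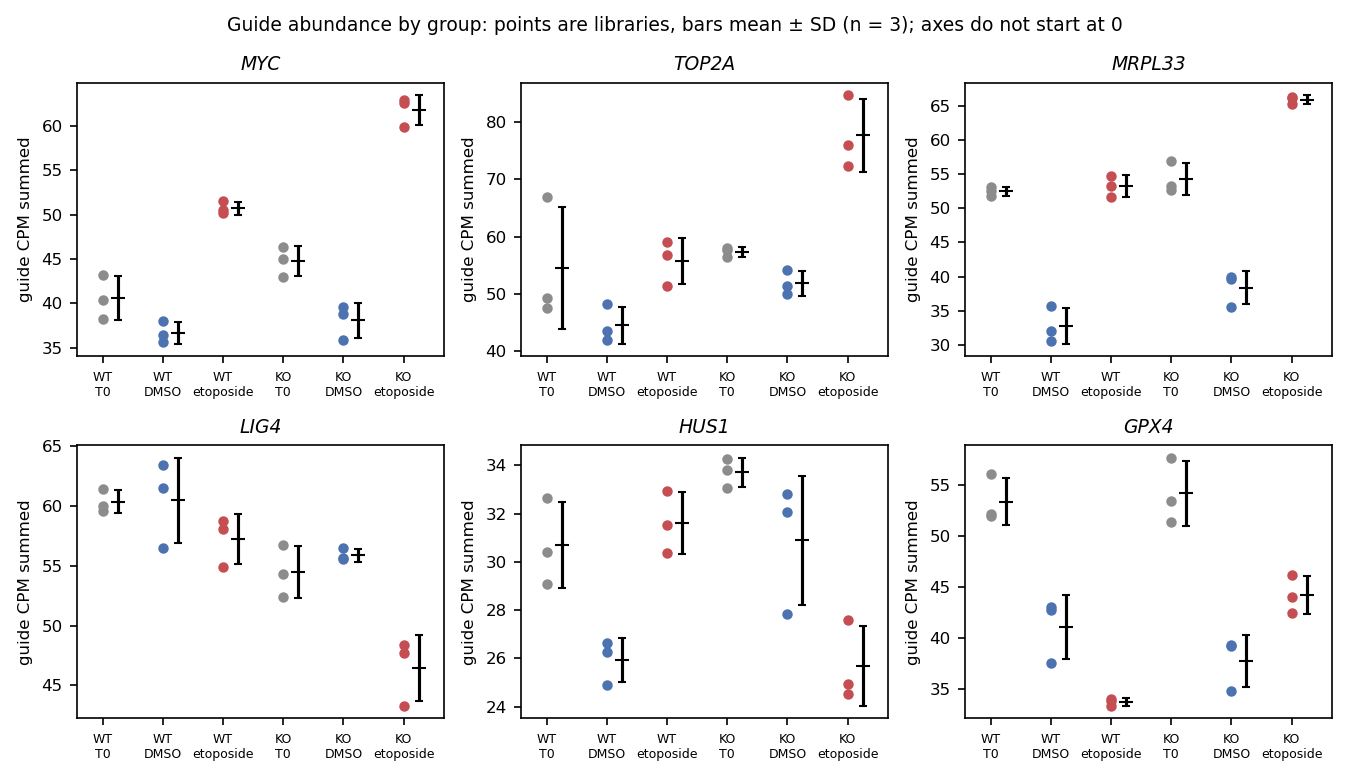
CPM (y axis, not starting at 0) of MYC, TOP2A, MRPL33, LIG4, HUS1 and GPX4 in the 6 groups of the screen, with 1 point per library and the mean ± SD of the 3 libraries. MYC, TOP2A and MRPL33 lie higher in etoposide than in DMSO in both genotypes, LIG4 lies lower in KO etoposide than in KO DMSO, and HUS1 and GPX4 move in opposite directions in the 2 genotypes.

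The etoposide effect in KO cells was then compared with that in WT cells. Of the 581 genes higher in KO, 528 (90.9%) were positive in WT, against 49.9% of all genes, with a median WT change of 0.144 beside 0.238 in KO. Of the 225 genes lower in KO, 136 (60.4%) were negative in WT, against 50.1% of all genes, with a median of −0.02 beside −0.18 in KO. MRPL33 was at 0.70 ± 0.06 in WT, MYC at 0.47 ± 0.06, TOP2A at 0.32 ± 0.06 and LIG4 at −0.08 ± 0.05. The difference between the genotypes missed the threshold for each of these (adjusted p = 0.755, 0.249, 0.239 and 0.32), which does not show that the effects were alike. A test of the difference across all genes called 10 of them (0.0525%), 5 more positive and 5 more negative in KO, and 1950 passed an unadjusted p of 0.05. The number of calls ranged from 4, without WT etoposide A, to 21, without KO DMSO A, was 5 without WT etoposide C and 18 without WT DMSO A, and was 99 with DESeq2.

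GPX4, RAD9A and HUS1 held with each of the 12 libraries left out. GPX4 guides, which rose in KO cells as given above, went from 42.8, 37.5 and 43.1 CPM to 34.1, 33.9 and 33.4 CPM in WT cells (−0.29 ± 0.06), a difference of 0.51 ± 0.08 (adjusted p = 0.000367). RAD9A stood at 28.2, 31.6 and 30.1 CPM in KO DMSO and 25.5, 26.6 and 26.99 CPM in KO etoposide, and at 23.3, 22.01 and 24.7 CPM and 31.8, 30.1 and 30.5 CPM in WT, where the change was 0.40 ± 0.07; the difference was −0.58 ± 0.10 (adjusted p = 0.000699). HUS1, its partner in the 9-1-1 clamp, was at 26.6, 24.9 and 26.3 CPM and 31.5, 32.9 and 30.4 CPM in WT (0.28 ± 0.07), a difference of −0.55 ± 0.10 (adjusted p = 0.00134). Without each gene's most abundant guide, GPX4 and RAD9A kept the call and the other 8 differences lost it, HUS1 with −0.48 (adjusted p = 0.0797) and with its KO change at −0.21 (adjusted p = 0.15), and on HGLibB guides alone GPX4, RAD9A and HUS1 all missed it (adjusted p = 0.168, 0.168 and 0.303). Guides against both clamp subunits were thus lower in KO and higher in WT after etoposide, although the KO change of RAD9A alone was not called. ATR was at 0.13 ± 0.06 in WT and its difference, −0.35 ± 0.08, missed the threshold (adjusted p = 0.0522). SMDT1, a regulator of the mitochondrial calcium uniporter, was at 0.05 ± 0.07 in KO and 0.52 ± 0.07 in WT, a difference of −0.47 ± 0.10 (adjusted p = 0.0128). Its call was lost without WT etoposide A or B, KO DMSO B, or KO etoposide C (adjusted p up to 0.102).

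The other 6 differences each depended on 1 or more libraries. HSPA4, a chaperone of the HSP110 family, was at −0.21 ± 0.05 in KO and 0.14 ± 0.05 in WT (difference −0.35 ± 0.07, adjusted p = 0.0105), and was lost without WT etoposide A, or KO etoposide A (adjusted p up to 0.0718). KLF5 was at 0.03 ± 0.06 in WT (difference −0.37 ± 0.08, adjusted p = 0.0369), and was lost without WT DMSO B or C, WT etoposide A, B or C, KO DMSO C, or KO etoposide B (adjusted p up to 0.14). ABT1, a nucleolar protein, rose in KO from 40.6, 37.6 and 41.5 CPM to 55.2, 55.3 and 52.3 CPM (0.45 ± 0.06) and was at 0.08 ± 0.06 in WT (difference 0.37 ± 0.08, adjusted p = 0.0302). The ABT1 difference was lost without WT DMSO B, WT etoposide A or C, KO DMSO B, or KO etoposide A or B (adjusted p up to 0.148). GFRA1, a receptor for the growth factor GDNF, rose in KO from 46.7, 47.8 and 47.3 CPM to 57.4, 57.03 and 55.8 CPM (0.26 ± 0.05) and was at −0.08 ± 0.05 in WT (difference 0.34 ± 0.07, adjusted p = 0.0128), and was lost without WT DMSO C, or WT etoposide B or C (adjusted p up to 0.111). CAST (calpastatin), the inhibitor of calpain proteases, was at 0.17 ± 0.05 in KO and −0.19 ± 0.05 in WT (difference 0.36 ± 0.07, adjusted p = 0.0128), and was lost without WT DMSO B, WT etoposide A or C, or KO etoposide C (adjusted p up to 0.074). SLC25A52, a carrier of the mitochondrial inner membrane, was at 0.17 ± 0.05 in KO and −0.15 ± 0.05 in WT (difference 0.32 ± 0.07, adjusted p = 0.0423), and was lost without WT DMSO B or C, WT etoposide A or C, KO DMSO A or B, or KO etoposide A or B (adjusted p up to 0.148).

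**Figure D4:**
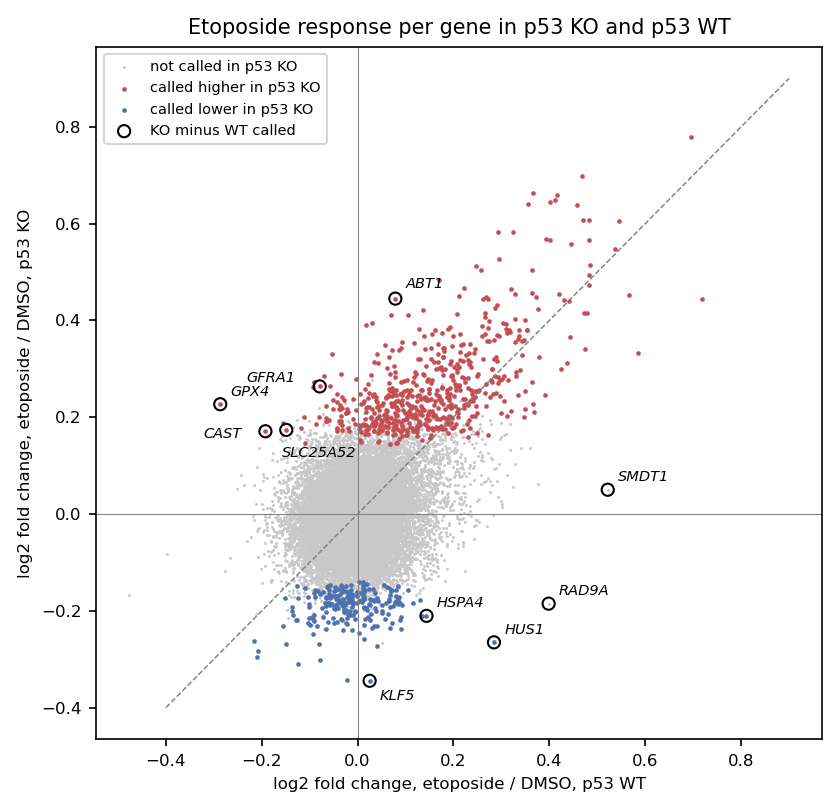
Log2 fold change under etoposide in KO cells (y axis) against that in WT cells (x axis), 1 point per gene, with the 10 genes whose difference was called circled and named. Values beyond the y axis, that of CASP6 among them, are not drawn. GPX4 lies at 0.23 in KO and −0.29 in WT, and RAD9A and HUS1 lie below 0 in KO and above 0 in WT.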

How the data were processed

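Guide RNA inserts were amplified from genomic DNA of U-2 OS cells by 2 rounds of PCR, per the labels' protocols. The authors deposited raw counts, 1 whole number per guide and library for 18 libraries, with no normalization, and no column was left unmapped to a sample. Bowtie2 and DESeq2 are named in the submitters' processing notes, with no version or role; the guide library, aligner settings, genome build and guide filters were not given in the sources used here. PCR reads carried no stated molecular identifiers, so counts are not independent molecules.

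Counts were summed over a gene's guides, scaled by TMM and tested by edgeR's quasi-likelihood method. The 18 libraries entered 1 fit with 12 residual degrees of freedom, so that all 6 groups set the spread. P-values were adjusted by Benjamini-Hochberg over 19044 genes, or over 109367 guides for single guides, with a threshold of 0.05 and two-sided tests. The difference between genotypes is the KO minus the WT etoposide effect in the same fit. The versions were 1.42.0 for DESeq2, 3.58.1 for limma, 4.0.16 for edgeR and 4.3.3 for R, and the scripts were tested on simulated data. No low-count filter was applied, and 6 genes had under 3 guides and were not tested.

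Named genes are the 15 highest and 15 lowest called genes whose guides share the gene's sign in 2 of every 3 cases or more; the 3 genes of smallest p from each of 40 lists; TOP2A, CDKN1A and MDM2; and the called differences between genotypes. Where a list had 5 or fewer calls the others are named too, and TOP2B, TDP1, PRKDC, XRCC4, XRCC5, ATM, RAD1, CHEK1, APAF1, MAX and SHARPIN were added for their roles after their values were seen. The members and lists were chosen with earlier results of these data known. Some genes that the rule names are not reported here. The RNA libraries of the series were not used.

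Alternatives were other scaling (DESeq2 size factors, non-targeting guides), a minimum mean of 100 counts per guide, DESeq2, limma on mean log2 CPM with a prior count of 2, the most abundant guide left out, only the libraries compared, the replicate letter as a block, and each library left out in turn. Fits on HGLibA or HGLibB guides alone (genes with at least 2 of them) and without the CASP6 guide were chosen after seeing the data.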

Additional observations from a re-analysis of the deposited data

Results flagged for a closer look

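The etoposide effect differed between p53 KO and p53 WT cells for 10 genes by a test of the difference itself (KO minus WT, edgeR's quasi-likelihood test with Benjamini-Hochberg adjustment). The difference was positive for GPX4 (0.51 ± 0.08), ABT1 (0.37 ± 0.08), CAST (0.36 ± 0.07), GFRA1 (0.34 ± 0.07) and SLC25A52 (0.32 ± 0.07). It was negative for RAD9A (−0.58 ± 0.10), HUS1 (−0.55 ± 0.10), SMDT1 (−0.47 ± 0.10), KLF5 (−0.37 ± 0.08) and HSPA4 (−0.35 ± 0.07), on the log2 scale with its SE. For GPX4, RAD9A and HUS1 the call held with each of the 12 libraries left out, with adjusted p-values up to 0.011, 0.011 and 0.0182. Without its most abundant guide the HUS1 difference missed the threshold (−0.48, adjusted p = 0.0797).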

How the results depend on the processing

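Of the other settings, DESeq2 called 1057 genes, limma 756, non-targeting scaling 942 and the fit without the most abundant guides 623, beside 806 in the fit reported. Fitted on only the libraries compared, the count was 500, with 416 higher and 84 lower genes beside 581 and 225 in the fit reported. In that setting ATR, MNT, FOXM1 and MAOA lost their lower call, while KLF5, SREBF2, LIG4, RNF31 and TSC2 kept it. The count was 522 on HGLibA guides, 308 on HGLibB guides, and 519 to 688 with 1 library left out. The KO minus WT difference, called for 10 genes, was called for 99 with DESeq2, 1 on HGLibB guides, 6 on only the libraries compared, 19 with non-targeting scaling, 18 without the CASP6 guide HGLibA_07318 and 4 to 21 with 1 library left out. Guides called numbered 920, 1465 with DESeq2, 488 on only the libraries compared and 511 to 830 with 1 library left out. The replicate letter as a block gave 837 genes, 17 differences and 1016 guides. Same-letter libraries of KO DMSO and KO etoposide deviated together with correlations of 0.102 (A), −0.0486 (B) and −0.0347 (C), so that the letters were not taken as pairs. DMSO B with etoposide C had a correlation of 0.0735, and DMSO C with etoposide B one of 0.107. The remaining pairs of differing letters lay between −0.0707 and −0.0284. The block follows the letters and does not cover a pairing across letters, which was not tested. Directions turned over for CASP6 on HGLibB guides (−0.0915) and without etoposide B (range with 1 library left out −1.05 to 3.92), and SMDT1 in KO on HGLibA guides (−0.143) and without DMSO A (range −0.0182 to 0.117). They also did for TRIM28 (0.0103), TNFRSF10D (0.0752) and ABCB1 (0.0215) on HGLibA guides and KAT5 (−0.0586) and SRP9 (−0.035) on HGLibB guides, none of them called; the cause of these changes was not tested. Over the named genes, 2360 recomputed values kept direction and side of the threshold, 278 lost the call, 53 gained it and 9 turned over. A median of 246 to 333 counts per guide limits single guides more than genes.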

Other observations

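Some groups of called genes lay outside the gene lists; they were put together after the values were seen, so their counts describe and support nothing. The small subunit processome, the nucleolar assembly that cuts and folds the precursor of the small ribosomal subunit's RNA, had 29 of 46 genes higher in KO cells under etoposide and 0 lower, with 44 positive. Its median was 0.205 in KO and 0.131 in WT, beside −0.0032 over all genes in KO, and 17 of the 29 calls held with each library left out. Over all genes, 3.05% were called higher. TSR1, an assembly factor with a GTPase-like fold, stood at 21.7, 23.3 and 23.8 CPM in DMSO and 31.8, 39.04 and 31.4 CPM in etoposide, without overlap (0.57 ± 0.08, adjusted p = 1.06e-08). NOP14 rose from 25.9, 26.3 and 27.5 CPM to 35.8, 38.97 and 35.2 CPM (0.46 ± 0.07, adjusted p = 2.31e-07), and UTP3 from 36.04, 35.5 and 39.1 CPM to 50.9, 45.2 and 47.1 CPM (0.37 ± 0.06, adjusted p = 1.43e-06), both nucleolar assembly factors. IMP4, which binds the U3 RNA, rose by 0.37 ± 0.06 (adjusted p = 2.54e-06).

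Of 8 genes listed for the pentose phosphate pathway, which makes NADPH and ribose, 2 rose and 0 fell, with 6 positive and a median of 0.0533: the dehydrogenase PGD (41.8, 40.6 and 42.2 CPM in DMSO, 53.96, 50.8 and 52.04 CPM in etoposide, 0.33 ± 0.06, adjusted p = 2.46e-05) and the transketolase TKT (0.26 ± 0.05, adjusted p = 0.000113). Of 14 components and activators of the growth kinase complex mTORC1, 2 rose and 0 fell, with 9 positive, 5 negative and a median of 0.0295. RPTOR, its defining scaffold, went from 51.7, 51.6 and 52.9 CPM to 67.7, 70.3 and 70.3 CPM (0.41 ± 0.05, adjusted p = 6.67e-11) with 6 of 6 guides up, and MTOR, the kinase, was at 0.23 ± 0.06 (adjusted p = 0.0109), a call that was lost without DMSO B, or etoposide A (adjusted p up to 0.136). Of 14 inhibitors of the complex, 2 fell and 0 rose, with 4 positive, 10 negative and a median of −0.0386. The 2 were TSC2, described above, and DEPTOR (−0.19 ± 0.05, adjusted p = 0.019), which was lost without DMSO C, or etoposide A (adjusted p up to 0.14). TSC1, on the same list, was not called (−0.06 ± 0.05, adjusted p = 0.611). The Hippo pathway, whose kinases hold back the growth-promoting effectors YAP1 and WWTR1, had 2 lower and 0 higher of 15. Its genes were 5 positive and 10 negative, with a median of −0.0316. The lower ones were the upstream cadherin FAT1 (−0.23 ± 0.05, adjusted p = 0.00163, lost without DMSO C, or etoposide C, adjusted p up to 0.0559) and the kinase LATS2 (−0.22 ± 0.07, adjusted p = 0.0344, lost without DMSO A or B, or etoposide B, adjusted p up to 0.37). Over all genes, 3.05% were called higher and 1.18% lower.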
